A study of Mus musculus with 20 samples.

Results

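Genes that steer messenger RNA decay were followed through renal ischemia/reperfusion injury in mouse kidney: the zinc finger genes Zfp36, Zfp36l1 and Zfp36l2, and the BTG/TOB genes Btg1, Btg2, Btg3, Tob1 and Tob2. They were selected by gene name, and they are 8 of the 27827 gene names on the array, measured by 15 of its 41174 probes. All 8 passed the filter on low signals in each of the 8 comparisons of groups. Of the 8, Btg2, Zfp36, Btg3, Btg1 and Zfp36l1 rose more than 2-fold after injury (IRI vs Control). Over all genes, 5.97% were called higher with at least 2-fold. None of the 8 was called lower, against 33.9% of all genes. Btg1 was not called in the log2 matrix that the authors deposited beside the scanner files. By limma, Zfp36, Zfp36l1, Btg1 and Tob1 were lower in both groups that had been treated before the injury than in IRI. Btg2 and Btg3 passed the limma test in neither of these comparisons. Both comparisons set arrays against each other that were scanned on different days. Each of the genes called lower lost a call in other settings of the processing. The falls of Btg1 were called in neither comparison in the deposited matrix.

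The samples were whole kidneys of male C57BL/6 mice aged 8 to 12 weeks, on 4 arrays per group. Control mice had neither surgery nor treatment, and no sham operated group was analysed here. In IRI, both renal pedicles were clamped for 45 min and the kidneys were taken after 6 h of reperfusion. IRI+Hemin mice had the same injury 24 h after an intraperitoneal injection of Hemin at 25 mg/kg, an inducer of the heme-degrading enzyme Hmox1, and Hemin mice had the injection alone. IPC+IRI mice had a preconditioning clamp of both pedicles of 15 min, 7 days before the same injury. The study asked how the injury changes the kidney transcriptome and how preconditioning or Hemin modulates that change. The number of animals behind an array is not stated in the sources used here, so the p-values measure only the spread between these samples.

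Most messenger RNAs are destroyed after their poly(A) tail has been shortened, mainly by the CCR4-NOT deadenylase complex. ZFP36, also called tristetraprolin, binds AU-rich elements in cytokine and early response mRNAs and brings CCR4-NOT to them. ZFP36L1 and ZFP36L2 are its paralogs, with the same pair of zinc fingers. BTG and TOB proteins bind the deadenylases CNOT7 and CNOT8, TOB1 and TOB2 also bind the poly(A)-binding protein, and all are known to restrain cell proliferation. Zfp36 and Btg2 are immediate-early genes, switched on quickly by stress and growth factor signals, and Btg2 is also a target of p53.

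The 250 bases before each start site were read from RefSeq (build GRCm38.p6) for 7 of the 8 genes. No stretch was available for Zfp36l2, and Btg3 had 2 start sites. They were searched on both strands for the cAMP response element TGACGTCA, the AP-1 site TGANTCA, the EGR site GCGGGGGCG and the CArG box of serum response factor, and on the sense strand for TATAAA. No motif overlapped another. The promoters of 3 genes are shown because they held a match to at least 1 of the first 4 motifs, and the matches stand in capitals. The Zfp36 stretch (chr7:28379229-28379478, minus strand) held an EGR site at -105 to -97 and a CArG box at -58 to -49. The Zfp36l1 stretch (chr12:80113014-80113263, minus strand) held an AP-1 site at -129 to -123 and TATAAA at -29 to -24. In Btg2 (chr1:134079156-134079405, minus strand) the cAMP response element lay at -166 to -159.
Zfp36: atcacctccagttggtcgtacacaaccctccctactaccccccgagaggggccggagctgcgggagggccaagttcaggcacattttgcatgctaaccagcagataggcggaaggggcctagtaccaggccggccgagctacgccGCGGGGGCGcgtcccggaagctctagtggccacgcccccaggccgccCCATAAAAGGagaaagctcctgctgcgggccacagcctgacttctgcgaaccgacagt
Zfp36l1: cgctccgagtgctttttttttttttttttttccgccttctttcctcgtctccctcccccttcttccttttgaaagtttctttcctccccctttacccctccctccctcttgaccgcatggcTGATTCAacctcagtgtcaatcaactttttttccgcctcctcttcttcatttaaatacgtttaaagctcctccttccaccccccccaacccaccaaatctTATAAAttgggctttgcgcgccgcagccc
Btg2: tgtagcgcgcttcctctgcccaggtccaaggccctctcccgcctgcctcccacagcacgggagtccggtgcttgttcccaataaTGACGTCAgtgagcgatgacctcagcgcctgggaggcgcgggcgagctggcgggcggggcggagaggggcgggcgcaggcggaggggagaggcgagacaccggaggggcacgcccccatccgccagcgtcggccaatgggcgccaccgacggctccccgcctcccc

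Among 32851 promoter stretches of this length, the cAMP response element was present in 1.55%, the AP-1 site in 6.75%, the EGR site in 2.57%, the CArG box in 1.47% and TATAAA in 7.59%. Btg1 and Tob1 held TATAAA only, at -26 to -21 and at -47 to -42. Neither Btg3, at either start site, nor Tob2 held any of these letters in the window. A match describes the sequence and is not evidence of a bound factor. One array probe of Zfp36, at chr7:29161940-29161999 (mm9, minus strand), itself held the nonamer TTATTTATT that ZFP36 recognises, in capitals in the stretch that starts at base 6 of the probe.
Zfp36 probe A_52_P80944: acgactTTATTTATTgtattaagat
The nonamer occurred in 90 of the 41174 probes (0.219%), and in no other probe of the 8 genes.

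Values are log2 expression, the background-subtracted signal over the 75th percentile of its array, so that 0 is that percentile. Over the 20 arrays this percentile was 147 to 358 signal units, 57.4% to 67.4% of the gene names were well above background, and replicates correlated at r = 0.975 to 0.995. The summed level of 9 kidney markers was 8.38 to 8.99, and all 9 were well above background on every array. In IRI vs Control, 3 of the 9 were lower and 1 was higher, the collecting duct channel Aqp2 (1.23), and their part in the members' rises was not tested. The summed level of 10 leukocyte markers was 1.97 to 2.51 in Control, 2.21 to 2.73 in Hemin, 2.78 to 3.67 in IRI, 3.59 to 5.32 in IPC+IRI and 3.06 to 4.11 in IRI+Hemin. Slides held 1 group each, and an effect of the slide cannot be told apart from that of the group. The scan took place on day 1 for IRI and Control, day 2 for IRI+Hemin and day 3 for Hemin and IPC+IRI. Thus IRI vs Control and IPC+IRI vs Hemin are the comparisons within 1 scan day. In tissue RNA, fewer cells of a type and less RNA per cell cannot be told apart.

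**Figure D1:**
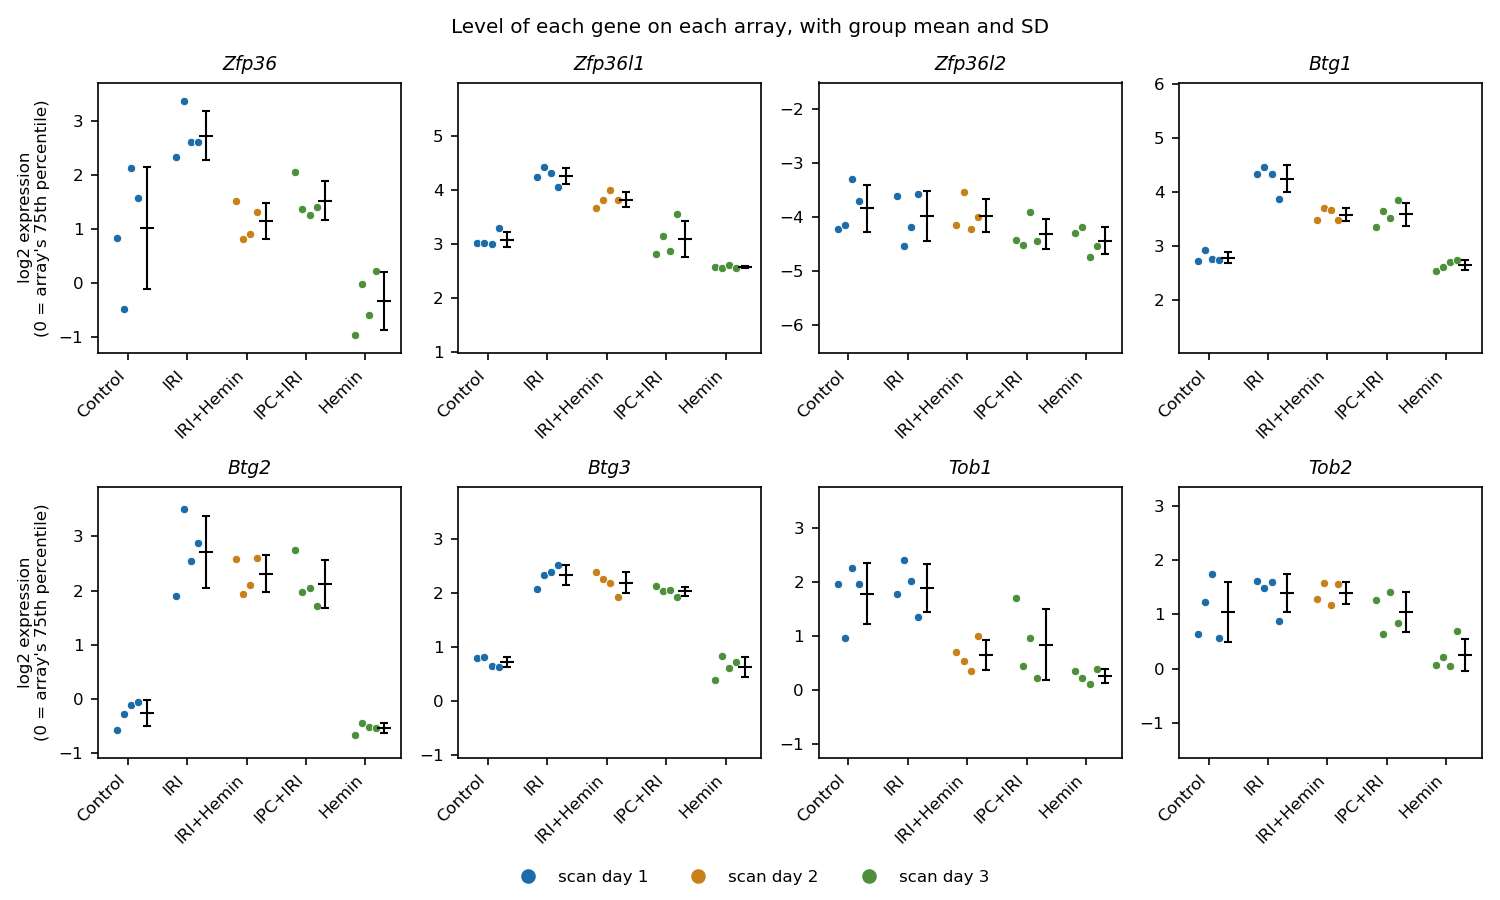
Log2 expression of the 8 genes on each of the 20 arrays (y axis, 0 = 75th percentile of the array) in the 5 groups (x axis), with the mean and SD as bars and the scan day as colour. The 4 IRI arrays lay above all 4 Control arrays for Zfp36, Zfp36l1, Btg1, Btg2 and Btg3, and the groups overlapped for Zfp36l2, Tob1 and Tob2.

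IRI vs Control asked what the injury alone changed, and 5 of the 8 genes rose, each by at least 2-fold and with 4 IRI arrays above all 4 Control arrays. Among 17719 genes tested, 17.1% were called higher at an adjusted p below 0.05 in limma, 5.97% were called higher with at least 2-fold, and 14.8% had all IRI arrays above all Control arrays. Falls were called in 33.9% of all genes and in 0 of the 8. The median log2 fold change was 1.32 over the 8 genes and -0.17 over all genes.

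Zfp36, the gene of tristetraprolin, rose 3.27-fold in IRI vs Control. Its log2 expression was 0.84, -0.48, 2.12 and 1.57 in Control and 2.32, 3.36, 2.60 and 2.61 in IRI. The Control arrays were the most spread of the 5 groups, yet the highest of them lay below the lowest IRI array. The difference was 1.71 (SE 0.41, adjusted p = 0.0022, limma). Hemin alone had the lowest values, -0.95, -0.01, -0.60 and 0.21. IRI+Hemin had 1.52, 0.82, 0.90 and 1.30, and IPC+IRI had 2.06, 1.37, 1.26 and 1.40. By mean, the order was Hemin at -0.34 ± 0.53 (SD, n = 4), Control at 1.01 ± 1.12, IRI+Hemin at 1.14 ± 0.33, IPC+IRI at 1.52 ± 0.36 and IRI at 2.72 ± 0.45. IRI lay apart from all other groups, whereas Control, IRI+Hemin and IPC+IRI overlapped.

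Zfp36 fell by 1.20 in IPC+IRI vs IRI (SE 0.41, adjusted p = 0.024) and by 1.59 in IRI+Hemin vs IRI (SE 0.41, adjusted p = 0.0048), without overlap in either. Neither pretreated group passed the test against Control, with 0.51 (95% confidence interval -0.36 to 1.37) for IPC+IRI and 0.12 (-0.75 to 0.99) for IRI+Hemin. Zfp36 was also lower in Hemin vs Control, by 1.35 (adjusted p = 0.017), with overlapping groups. It rose in both comparisons with Hemin, by 1.86 in IPC+IRI vs Hemin and by 1.48 in IRI+Hemin vs Hemin (adjusted p = 0.0021 and 0.0080). The call in IPC+IRI vs IRI was lost without IRI replicate 2 (-0.99, adjusted p = 0.078) or IPC+IRI replicate 3 (-1.12, adjusted p = 0.058), after normexp (-0.90, adjusted p = 0.060), with the mean of log2 values over probes (-1.03, adjusted p = 0.057) and without normalization between arrays (-0.89, adjusted p = 0.12). The call in Hemin vs Control was lost without Control replicate 3 (-0.98, adjusted p = 0.072), Control replicate 4 (-1.17, adjusted p = 0.058) or Hemin replicate 1 (-1.15, adjusted p = 0.057), when only the arrays compared were fitted (adjusted p = 0.066) and without normalization (-0.79, adjusted p = 0.14).

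Zfp36l1 rose 2.27-fold in IRI vs Control, by 1.18 (SE 0.14, adjusted p = 2.1e-06). Control arrays gave 3.01, 3.01, 2.99 and 3.28, and IRI arrays 4.24, 4.42, 4.31 and 4.05. The Control values lay close together, and all of them below the IRI values. IPC+IRI arrays gave 2.82, 3.14, 2.87 and 3.54, IRI+Hemin arrays 3.65, 3.80, 4.00 and 3.80, and Hemin arrays 2.58, 2.55, 2.60 and 2.55. The order by mean was Hemin (2.57 ± 0.03), Control (3.07 ± 0.14), IPC+IRI (3.09 ± 0.33), IRI+Hemin (3.81 ± 0.14) and IRI (4.26 ± 0.15). Control and IPC+IRI, neighbours in this order, overlapped and differed by 0.02 (95% confidence interval -0.27 to 0.31).

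Zfp36l1 was lower than in IRI in both pretreated groups. It fell by 1.16 in IPC+IRI vs IRI (SE 0.14, adjusted p = 9.5e-06) and by 0.44 in IRI+Hemin vs IRI (SE 0.14, adjusted p = 0.014), and it remained 0.74 higher in IRI+Hemin than in Control (adjusted p = 0.00019). The IPC+IRI arrays all lay below the IRI+Hemin arrays, a pair of groups that was not tested. Hemin vs Control gave -0.50 (adjusted p = 0.0088), with groups apart, but without scaling between arrays the difference was 0.063, where the median gene stood at 0.62, and after the normexp background correction it was not called (-0.38, adjusted p = 0.0996). The smaller fall in IRI+Hemin vs IRI was not called for the brighter of the 2 probes alone (-0.34, adjusted p = 0.051), after the normexp background correction (-0.21, adjusted p = 0.28), without normalization between arrays (-0.08, adjusted p = 0.83), or in the deposited log2 matrix (-0.28, adjusted p = 0.18, scaled and -0.12, adjusted p = 0.77, unscaled). Against Hemin, Zfp36l1 was higher by 1.24 in IRI+Hemin and by 0.52 in IPC+IRI (adjusted p = 2.6e-06 and 0.0066), the latter not called without normalization (0.39, adjusted p = 0.30) or in the unscaled matrix (0.42, adjusted p = 0.31).

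Zfp36l2, the paralog known for its role in blood stem cells, was not called by limma in any of the 8 comparisons. Its group means ranged from -4.44 in Hemin to -3.85 in Control, and its 20 values from -4.73 to -3.30. It had a single probe with 71.7% GC and a median signal of 13.8 units, well above background on 19 of 20 arrays. IRI vs Control differed by -0.13 (95% confidence interval -0.63 to 0.37). In Hemin vs Control, the difference of -0.59 (adjusted p = 0.060) passed the threshold without Control replicate 1 (-0.72, adjusted p = 0.040) or Control replicate 2 (-0.69, adjusted p = 0.039). In IPC+IRI vs Control, -0.48 (adjusted p = 0.096) became -0.62 (adjusted p = 0.046) without IPC+IRI replicate 3. SAM, the test in the methods of the study, called Zfp36l2 in both of these (q = 0.010 and 0.027) and in IRI+Hemin vs Hemin (0.46, q = 0.021). Quantile normalization called it in IRI+Hemin vs Hemin (0.69, adjusted p = 0.025), and a percentile taken over probes above background in Hemin vs Control (-0.71, adjusted p = 0.035).

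Btg2, the early response member of the BTG group, had the largest change of the 8 genes in IRI vs Control. Control arrays gave -0.59, -0.28, -0.11 and -0.06, and Hemin arrays -0.67, -0.44, -0.52 and -0.54. IRI arrays gave 1.90, 3.50, 2.55 and 2.87, IRI+Hemin arrays 2.59, 1.94, 2.11 and 2.61, and IPC+IRI arrays 2.75, 1.96, 2.05 and 1.71. Every array of an injured kidney lay above every array of an uninjured one, and the injured groups overlapped. The rise was 2.96 in IRI vs Control (SE 0.27, adjusted p = 1.6e-07), or 7.81-fold, 2.57 in IRI+Hemin vs Control (adjusted p = 7.2e-07) and 2.38 in IPC+IRI vs Control (adjusted p = 1.9e-06). Means ran from -0.54 ± 0.10 in Hemin and -0.26 ± 0.24 in Control to 2.12 ± 0.45 in IPC+IRI, 2.31 ± 0.34 in IRI+Hemin and 2.71 ± 0.67 in IRI.

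Pretreatment moved Btg2 less than its spread allowed to be called: IPC+IRI vs IRI gave -0.59 (95% confidence interval -1.15 to -0.02, adjusted p = 0.084) and IRI+Hemin vs IRI gave -0.40 (-0.96 to 0.17, adjusted p = 0.25). IRI replicate 1 was the lowest of its group, and without it these became -0.86 (adjusted p = 0.011) and -0.66 (adjusted p = 0.040). Without IPC+IRI replicate 1, the former was -0.80 (adjusted p = 0.024). Hemin vs Control differed by -0.28 (adjusted p = 0.44 in limma, q = 0.027 in SAM).

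Btg3, another CNOT7 and CNOT8 binding member, separated injured from uninjured kidneys, with SDs of 0.08 to 0.19 in the 5 groups. Its values were 0.79, 0.82, 0.66 and 0.63 in Control and 0.39, 0.83, 0.62 and 0.72 in Hemin. They were 2.08, 2.33, 2.38 and 2.52 in IRI, 2.39, 2.26, 2.19 and 1.93 in IRI+Hemin, and 2.13, 2.03, 2.05 and 1.93 in IPC+IRI. The 2 uninjured groups overlapped, as did the 3 injured ones, and no value lay between 0.83 and 1.93. Btg3 rose by 1.60 in IRI vs Control (SE 0.12, adjusted p = 1.7e-08), by 1.47 in IRI+Hemin vs Control (adjusted p = 6.0e-08) and by 1.31 in IPC+IRI vs Control (adjusted p = 2.0e-07). Against IRI, the differences were -0.29 in IPC+IRI (95% confidence interval -0.54 to -0.04, adjusted p = 0.055) and -0.13 in IRI+Hemin (-0.39 to 0.12, adjusted p = 0.38). The former was called without IRI replicate 1 (-0.38, adjusted p = 0.022) and after quantile normalization (-0.35, adjusted p = 0.031). Means were 0.64 ± 0.18 in Hemin, 0.72 ± 0.09 in Control, 2.04 ± 0.08 in IPC+IRI, 2.19 ± 0.19 in IRI+Hemin and 2.33 ± 0.19 in IRI.

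Btg1, known for keeping lymphocytes and other cells quiescent, rose with injury as well but took an intermediate level in the pretreated groups. Control arrays gave 2.72, 2.93, 2.76 and 2.74, Hemin arrays 2.54, 2.62, 2.72 and 2.74, and IRI arrays 4.33, 4.46, 4.33 and 3.88. IRI+Hemin arrays gave 3.49, 3.71, 3.66 and 3.48, and IPC+IRI arrays 3.35, 3.64, 3.52 and 3.85. The pretreated groups overlapped with each other, and they lay above all uninjured and below all IRI arrays. Btg1 rose by 1.46 in IRI vs Control (SE 0.13, adjusted p = 9.3e-08), or 2.76-fold, and by 0.80 in both IPC+IRI and IRI+Hemin vs Control (adjusted p = 4.6e-05 in each). It fell by 0.66 in IPC+IRI vs IRI (SE 0.13, adjusted p = 0.00050) and by 0.67 in IRI+Hemin vs IRI (SE 0.13, adjusted p = 0.00046). These falls were not called without normalization between arrays (-0.34 and -0.30, adjusted p = 0.26 and 0.32) or in the deposited log2 matrix, where they were -0.16 and -0.11 scaled (adjusted p = 0.77 and 0.85) and 0.017 and 0.057 unscaled. In both forms of the matrix, the rise in IRI vs Control was not called (0.92, adjusted p = 0.063, scaled and 1.22, adjusted p = 0.054, unscaled). The same held for IPC+IRI vs Hemin (0.59 and 0.58, adjusted p = 0.26 and 0.40) and IRI+Hemin vs Hemin (0.65 and 0.62, adjusted p = 0.21 and 0.35). In the scaled matrix, the rises of the pretreated groups against Control were not called either (0.75, adjusted p = 0.12, in IPC+IRI and 0.81, adjusted p = 0.097, in IRI+Hemin), and the latter was 0.34 (adjusted p = 0.052) when the log2 values of both probes were averaged. The matrix has no value for the brighter Btg1 probe in IRI replicate 2 and for the dimmer one in IRI replicate 4 and Hemin replicate 3. The order by mean was Hemin (2.65 ± 0.09), Control (2.79 ± 0.10), IRI+Hemin (3.58 ± 0.12), IPC+IRI (3.59 ± 0.21) and IRI (4.25 ± 0.26), and the first pair and the pretreated pair overlapped.

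Tob1, which links CCR4-NOT to the poly(A)-binding protein, was not called with injury but was lower in every group scanned after the first day. Its values were 1.95, 0.96, 2.26 and 1.96 in Control and 1.77, 2.40, 2.02 and 1.35 in IRI. IRI+Hemin had 0.70, 0.55, 0.34 and 1.00, IPC+IRI 1.71, 0.44, 0.96 and 0.23, and Hemin 0.35, 0.22, 0.11 and 0.39. Hemin lay apart below Control and IRI+Hemin apart below IRI, while IPC+IRI overlapped with both Control and IRI. Tob1 was lower by 1.52 in Hemin vs Control (SE 0.30, adjusted p = 0.0011), by 1.13 in IRI+Hemin vs Control (adjusted p = 0.0039) and by 0.95 in IPC+IRI vs Control (adjusted p = 0.013). It fell by 1.24 in IRI+Hemin vs IRI (adjusted p = 0.0031) and by 1.05 in IPC+IRI vs IRI (adjusted p = 0.0093). Within 1 scan day, IRI vs Control gave 0.10 (95% confidence interval -0.53 to 0.73) and IPC+IRI vs Hemin gave 0.57 (-0.06 to 1.21), neither called by limma. SAM called Tob1 higher in IPC+IRI vs Hemin (q = 0.043) and in IRI+Hemin vs Hemin (0.38, q = 0.023). For Tob1, which has a single probe, scan day and treatment cannot be told apart. The call in IPC+IRI vs Control was lost without IPC+IRI replicate 4 (-0.74, adjusted p = 0.052) and when only the arrays compared were fitted (adjusted p = 0.058). Without normalization between arrays, Tob1 was not called in IPC+IRI vs Control (-0.51, adjusted p = 0.18), IRI+Hemin vs Control (-0.65, adjusted p = 0.083) or IPC+IRI vs IRI (-0.73, adjusted p = 0.063), and the unscaled matrix gave the same differences (adjusted p = 0.20, 0.096 and 0.078).

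Tob2, its paralog, was lowest in Hemin, with 0.06, 0.21, 0.06 and 0.69. The other arrays gave 0.63, 1.23, 1.75 and 0.56 in Control, 1.61, 1.49, 1.59 and 0.88 in IRI, 1.29, 1.58, 1.17 and 1.56 in IRI+Hemin, and 1.27, 0.64, 1.42 and 0.85 in IPC+IRI. These 4 groups overlapped with each other, and IRI+Hemin was apart from Hemin. Tob2 rose by 1.15 in IRI+Hemin vs Hemin (SE 0.25, adjusted p = 0.0014) and differed by 0.35 in IRI vs Control (95% confidence interval -0.18 to 0.87, adjusted p = 0.26). It was lower in Hemin vs Control (-0.79, adjusted p = 0.021) and higher in IPC+IRI vs Hemin (0.79, adjusted p = 0.020). Both of these calls were lost in the scaled matrix (-0.72 and 0.67, adjusted p = 0.083 and 0.099), in the unscaled matrix (-0.22 and 0.66, adjusted p = 0.53 and 0.12) and without single arrays. The former was also lost without normalization (-0.22, adjusted p = 0.40), and the latter with the brightest probe alone (0.56, adjusted p = 0.13). Hemin vs Control gave -0.55 (adjusted p = 0.088) without Control replicate 3, and -0.72 without Hemin replicate 1 or 3 (adjusted p = 0.056 and 0.055). IPC+IRI vs Hemin gave 0.73 and 0.72 without Hemin replicate 1 or 3 (adjusted p = 0.054 and 0.053), and 0.71 and 0.66 without IPC+IRI replicate 1 or 3 (adjusted p = 0.051 and 0.065). Without Control replicate 3, IRI vs Control (0.59, adjusted p = 0.046) and IRI+Hemin vs Control (0.60, adjusted p = 0.040) were called. The former was also called in the unscaled matrix (0.81, adjusted p = 0.045) and the latter without normalization (0.84, adjusted p = 0.0039), and averaging the log2 values of the probes called IRI+Hemin vs IRI (0.57, adjusted p = 0.046).

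**Figure D2:**
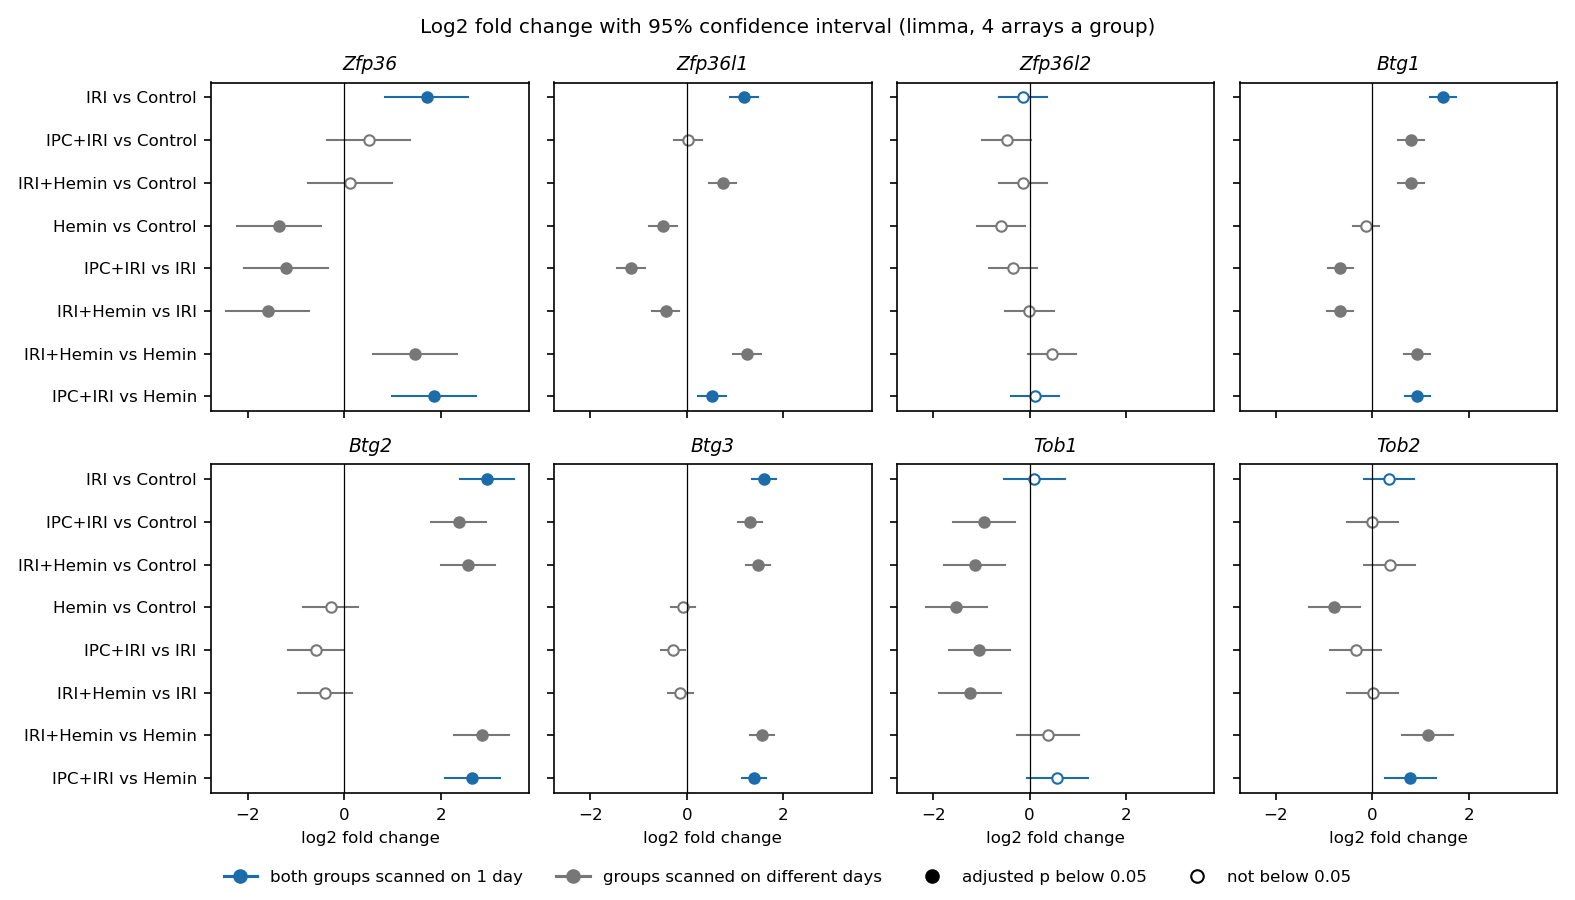
Log2 fold change of each gene (x axis) with its 95% confidence interval in the 8 comparisons of groups, filled where the adjusted p was below 0.05 and blue where both groups were scanned on the same day. Btg2 stands farthest right in each comparison of injured with uninjured kidneys, from 2.38 to 2.96, and no gene was called higher in a pretreated injured group than in IRI, where the fall of Btg1 was not called in the deposited log2 matrix.

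The injured groups with pretreatment were each set against the same 4 Control arrays. In IPC+IRI vs Control, 3 members rose (Btg2, Btg3 and Btg1; background 23.2% of 18352 genes) and 1 was lower (Tob1; background 32.8%). In IRI+Hemin vs Control, 4 rose (the same 3 and Zfp36l1; background 24.4% of 18489 genes) and again only Tob1 was lower (background 33.2%). All the rises, and neither fall, had groups apart, which held for 17.7% and 19.8% of all genes in that direction. With at least 2-fold, 2 members were higher in each, Btg2 and Btg3, against 7.96% and 8.35% of all genes, and Tob1 was lower in IRI+Hemin vs Control, against 14.5%.

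What preconditioning and Hemin changed in the injured kidney was asked by setting IPC+IRI and IRI+Hemin each against the same 4 IRI arrays. Zfp36, Zfp36l1, Tob1 and Btg1 were lower in each, 4 of 8 against 17.8% of 17668 and 18.1% of 17835 genes called lower, and no member was called higher, against 26.3% of all genes in each. Groups were apart for 3 of the 4 in IPC+IRI vs IRI (15.7% of all genes) and for all 4 in IRI+Hemin vs IRI (15.5%). The fall reached 2-fold for Zfp36, Zfp36l1 and Tob1 in IPC+IRI vs IRI (4.4% of all genes) and for Zfp36 and Tob1 in IRI+Hemin vs IRI (5.04%). Both comparisons cross scan days, and each of the 4 genes lost a call in other settings, given above for each gene. Without normalization between arrays, and in the unscaled matrix, 1 of 8 was called in IPC+IRI vs IRI and 2 in IRI+Hemin vs IRI. Without normalization, 603 of 17668 and 620 of 17835 genes were called lower. In the scaled matrix, 2 were called in IRI+Hemin vs IRI. The 2-fold count in IPC+IRI vs IRI was 1 without IRI replicate 2 and 0 after normexp. The median change of the 8 was -0.62 and -0.42, against 0.09 and 0.08 over all genes.

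Hemin vs Control, which shows Hemin without injury, had 4 members lower, Tob1, Zfp36, Tob2 and Zfp36l1, against 17.6% of 18579 genes, and 0 higher, against 18.5%. Groups were apart for Tob1 and Zfp36l1 (18.1% of all genes), and 2-fold was reached by Tob1 and Zfp36 (5.99%). The 3 BTG genes differed by -0.28 to -0.08 and were not called by limma, whereas SAM called Btg2 (q = 0.027), and the mean of log2 values over probes called Btg1 (-0.51, adjusted p = 0.011). IRI+Hemin vs Hemin, the injury in Hemin-treated mice, had 6 members higher, all with groups apart and all but Btg1 by at least 2-fold (5.79% of all genes): Btg2 (2.85, adjusted p = 5.3e-07), Btg3 (1.55, adjusted p = 5.7e-08), Zfp36, Zfp36l1, Tob2 and Btg1 (0.93, adjusted p = 2.2e-05, not called in the deposited matrix), against 16.5% of 18634 genes called and 17% apart. Whether the injury response differed between Hemin-treated and untreated mice was tested as an interaction, in which limma called 0 of 8 members and 7.79% of all genes. At an unadjusted p below 0.05 there were 2 of 8, against 22.3% of all genes: Btg1 (-0.53, adjusted p = 0.078) and Tob2 (0.80, adjusted p = 0.19). Without IRI replicate 4, the lowest Btg1 value of its group, Btg1 was called (-0.66, adjusted p = 0.016). With the mean of log2 values over probes, limma called Btg1 (-0.71, adjusted p = 0.041) and Tob2 (1.26, adjusted p = 0.021). In that setting 1051 of 19064 genes were called higher and 308 lower.

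IPC+IRI vs Hemin sets an injured against an uninjured group within 1 scan day, although the groups also differ in their pretreatment. The 6 members that rose were Btg2 by 2.66 (adjusted p = 1.4e-06), Zfp36 by 1.86, Btg3 by 1.39 (adjusted p = 2.2e-07), Btg1 by 0.94 (adjusted p = 2.8e-05), Tob2 by 0.79 and Zfp36l1 by 0.52. The calls of Btg1, Tob2 and Zfp36l1 were lost in other settings, given above for each gene. The background was 13.2% of 18544 genes. All but Tob2 had groups apart (14% of all genes), and Btg2, Zfp36 and Btg3 passed 2-fold (5.27%). The 5 genes that rose in IRI vs Control are among the 6, but Btg1 was called in neither comparison in the deposited matrix. These comparisons share no array, but limma was fitted on all arrays together, so their tests share an estimate of the spread. By limma, Zfp36 and Zfp36l1 were also lower in Hemin vs Control (-1.35 and -0.50). In IPC+IRI vs Control, Zfp36 and Zfp36l1 differed by 0.51 and 0.02 and were not called.

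Probes of a gene often gave different sizes. For Zfp36l1 both probes gave 1.19 and 1.18 in IRI vs Control and -1.17 and -1.16 in IPC+IRI vs IRI. Btg2's 3 probes all rose in IRI vs Control, by 3.09, 2.90 and 2.38, and in IPC+IRI vs Hemin, by 2.72, 2.63 and 2.38. They differed in IPC+IRI vs IRI, with -0.74 (adjusted p = 0.038), 0.18 (adjusted p = 0.63) and -0.19 (adjusted p = 0.64), so the sign for Btg2 there depended on the probe.

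The 2 probes of Btg1, both on chromosome 10, rose alike in IRI vs Control (1.45 and 1.66) and in IPC+IRI vs Hemin (0.93 and 1.00). Against Control, the brighter probe (chr10:96081915-96081974) was higher in IPC+IRI and IRI+Hemin (0.88 in each), while the dimmer one (chr10:96081259-96081318) gave 0.04 (adjusted p = 0.89) and -0.21 (adjusted p = 0.39). Against IRI, both were lower, by 0.57 and 1.62 in IPC+IRI and by 0.56 and 1.87 in IRI+Hemin. The intermediate level of Btg1 in the pretreated groups was therefore that of the brighter probe, which carries most of the gene's signal. For Zfp36 both probes rose in IRI vs Control (1.76 and 1.44), and the dimmer, which holds the nonamer, gave -0.77 (adjusted p = 0.16) in IPC+IRI vs IRI, where the brighter gave -1.29 (adjusted p = 0.015).

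Tob2's probes went opposite ways in the pretreated groups. The brighter (chr15:81679488-81679547) gave -0.72 (adjusted p = 0.041) in IPC+IRI vs IRI and -0.50 (adjusted p = 0.15) in IRI+Hemin vs IRI. The dimmer (chr15:81680205-81680264) rose by 1.12 (adjusted p = 0.0052) and 1.70 (adjusted p = 0.00021), and in the interaction it gave 2.42 (adjusted p = 0.0021), the brighter 0.33 (adjusted p = 0.68). The other Tob2 probe was not well above background on any array.

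**Figure D3:**
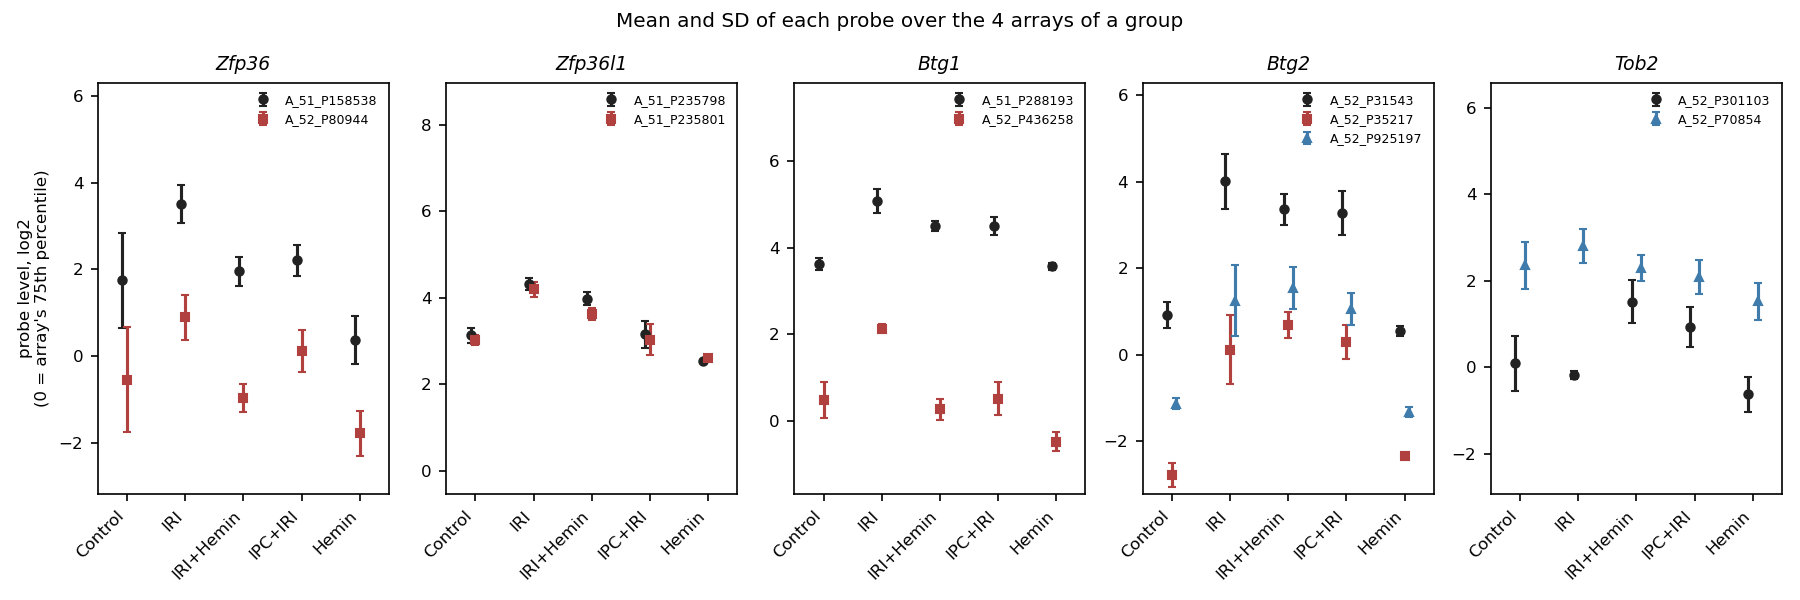
Log2 expression (y axis) of the probes of the 5 genes with several probes in the 5 groups (x axis), as mean and SD over 4 arrays, without the dimmest Tob2 probe. The Btg1 probes ran in parallel in Control and IRI and drew apart in the later scanned groups, whose changes against Control were 0.88 and 0.04 in IPC+IRI.

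The change in the ratio between the 2 Btg1 probes was called in each of the 5 comparisons of a first-day with a later group, with sizes from 0.84 to 1.30, and not in IRI vs Control (-0.21, adjusted p = 0.56), IPC+IRI vs Hemin (-0.07, adjusted p = 0.88) or IRI+Hemin vs Hemin (0.19, adjusted p = 0.51). Of the 3 pairs of Btg2 probes, however, 2 changed their ratio in IRI vs Control, within the first scan day (0.71, adjusted p = 0.036, and 0.52, adjusted p = 0.018). This test was chosen after the values were seen. Over 8388 pairs of probes of the same gene, such a change was called in 23% in IRI vs Control and 19.3% in IPC+IRI vs Hemin. In the other 6 comparisons it was called in 36.3% to 53.8%. Its part in the members' differences was not tested.

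Over the 20 arrays, Btg2 and Btg3 ran most alike of the 28 pairs of members (Pearson r = 0.966), followed by Btg1 with Btg3 (0.894) and Btg1 with Btg2 (0.879). Zfp36l1 was closest to Btg1 (0.877), and Zfp36 to Btg2 (0.748). Tob1 was closest to Zfp36 (0.722) and least like Btg3 (0.126). The points share groups, slides and scan days, so these are descriptions. Among 14534 genes well above background on all arrays, the nearest to Btg2 were AK040334 (0.986) and Dusp8 (0.983), and to Btg3 Rela (0.984), which encodes the p65 subunit of NF-kB, and Ankrd33b (0.982). Btg1 was nearest to 5730453I16Rik (0.971) and Akap12 (0.964), and Zfp36l1 to Map3k3 (0.956) and Rnf103 (0.948). For Zfp36 these were Rab11b (0.946) and Uap1 (0.945), for Tob1 Fhit (0.937) and Slc25a39 (0.931), for Tob2 Drap1 (0.835) and NAP030873-1 (0.826), and for Zfp36l2 Ceacam2 (0.774) and Uba1 (0.739).

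Genes around the members were read by fixed lists, each described by its counts beside the shares of all genes given above. Of 15 mRNAs known as ZFP36 targets, 13 were tested in IRI vs Control, but 5 of these were well above background on at least 3 of 4 arrays in only 1 of the groups, so that the filter itself favoured their direction. Of the other 8, 6 rose by at least 2-fold, Ccl2, Myc, Fos, Plk3, Il1b and Ier3, by up to 4.83, and Vegfa, an angiogenic factor, fell by 0.52 (adjusted p = 0.0069). The median of the 8 was 2.99. Among the 5, Cxcl1, a neutrophil-attracting chemokine, had a mean of 2.25 ± 0.41 in IRI and -4.40 ± 1.35 in Control, where 1 of 4 arrays was well above background. Il6, an inflammatory cytokine, was not well above background on any Control array and was at least 24.3-fold higher in IRI. Il10, an anti-inflammatory cytokine, was well above background on 3 of 4 Control arrays and 1 of 4 IRI arrays. Of 9 tested leukocyte markers, 3 were called higher and 1 was lower. S100a8 rose from -4.30 in Control to -0.25 in IRI, S100a9 from -1.72 to 1.96 and Cd68 from -2.53 to -0.30. The filter also favoured S100a8, which was well above background on 2 of 4 Control arrays. The B cell marker Cd79a went from -4.00 to -5.07, with 1 of 4 IRI arrays well above background. Emr1 went from -2.22 to -3.07, Cd3e from -3.34 to -3.85 and Lyz2 from 1.18 to 1.04. Csf1r went from -0.02 to 0.27, and Ptprc stood at -2.87 and -2.86. The part of infiltrating cells in these rises was not tested.

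Some ZFP36 targets were lower in the pretreated injured groups than in IRI. In IPC+IRI vs IRI, 4 of 12 targets tested fell, each at least 2-fold, with Myc (-2.30, adjusted p = 7.2e-06) and Ccl2 (-1.86, adjusted p = 0.0032) foremost, and none rose. In IRI+Hemin vs IRI, 7 of 12 fell, led by Ccl2 (-2.06, adjusted p = 0.0015) and Il6 (-1.81, adjusted p = 0.0038), and none rose. One of the 7, Tnf, was well above background on 2 of 4 IRI+Hemin arrays. The medians were -0.48 and -1.18. Of the leukocyte markers, 3 of 9 were higher and 1 was lower in IPC+IRI vs IRI, while in IRI+Hemin vs IRI the 9 differed by -0.55 to 1.22 without a call. Cd79a was not among the 9 tested in IPC+IRI vs IRI, being well above background on 1 of 4 IRI and 0 of 4 IPC+IRI arrays. In Hemin vs Control, 8 targets were well above background on at least 3 of 4 arrays of both groups, and of these Myc (-1.40, adjusted p = 0.00062) and Vegfa were lower and 0 were higher. In IPC+IRI vs Hemin, within the later scan day, 7 of 9 such targets were higher and 1 was lower.

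Kinases, phosphatases and adaptors that act on ZFP36 made up a list of 12. In IRI vs Control, 4 rose and 1 fell, with a median of 0.18. Dusp1, the phosphatase that inactivates p38, rose by 1.69 (adjusted p = 0.00011), Mapkapk2, the kinase that phosphorylates ZFP36, rose by 0.72 (adjusted p = 0.0013), and Mapkapk3 fell by 0.53 (adjusted p = 0.0027). Dusp1, like Zfp36, was lower by 1.31 in IPC+IRI vs IRI (adjusted p = 0.0015), by 1.26 in IRI+Hemin vs IRI (adjusted p = 0.0020) and by 1.09 in Hemin vs Control (adjusted p = 0.0077), and higher by 1.47 in IPC+IRI vs Hemin (adjusted p = 0.00082). Of the 12, 2 were higher and 6 lower in IPC+IRI vs IRI, and 3 and 4 in IRI+Hemin vs IRI, where Ywhaz, a 14-3-3 protein, was lower by 1.48 (adjusted p = 3.4e-05).

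Other proteins that bind AU-rich or stem-loop elements rose in 5 of 13 cases in IRI vs Control and fell in 2. Zc3h12a, the Regnase-1 ribonuclease of inflammatory mRNAs, rose by 1.67 (adjusted p = 8.3e-05) and Hnrnpd by 0.66 (adjusted p = 0.00012), while the translational repressors Tia1 and Tial1 fell by 0.74 (adjusted p = 3.4e-05) and 0.42 (adjusted p = 0.0025). In IRI+Hemin vs IRI, 6 fell, Zc3h12a by 1.35 (adjusted p = 0.00086), and 2 rose, and in IPC+IRI vs IRI 3 fell and 2 rose.

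Of 12 subunits of CCR4-NOT, the complex that the members recruit, 0 rose (17.1% of all genes) and 3 fell (33.9%) in IRI vs Control, with a median of -0.01 and a range of -0.48 to 0.36, and Cnot3 (-0.48, adjusted p = 0.0090) and Cnot6l (-0.40, adjusted p = 0.0071) were the lowest. Cnot7, the deadenylase bound by BTG and TOB proteins, differed by 0.05 in IRI vs Control (adjusted p = 0.80) and by 0.15 in IPC+IRI vs Hemin (adjusted p = 0.41). In the 5 comparisons of a later with a first-day group it was lower by 0.97 to 1.12, for example by 1.02 in IPC+IRI vs IRI (adjusted p = 2.6e-05). Scan day and treatment cannot be told apart for these falls either. Cnot8 fell by 0.23 in IRI vs Control (adjusted p = 0.049). Against IRI, IPC+IRI had 2 of the 12 subunits higher and 4 lower, and IRI+Hemin 3 and 4.

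Among 9 measured deadenylases and poly(A)-binding proteins outside CCR4-NOT, 2 rose and 3 fell in IRI vs Control, and Ccrn4l, the circadian deadenylase-like gene nocturnin, rose by 1.81 (adjusted p = 0.00045) and also by 2.43 in IPC+IRI vs Hemin (adjusted p = 6.8e-05). Against IRI, 2 of the 9 were higher and 3 lower in IPC+IRI, and 4 and 3 in IRI+Hemin. Of 18 decapping and 5′ to 3′ decay genes, 2 rose and 2 fell in IRI vs Control, with Patl1 at 0.50 (adjusted p = 0.0053) and Dcps at -0.69 (adjusted p = 0.0051). Against IRI, 10 of these 18 were higher and 5 lower in IPC+IRI, with Ddx6, a helicase of decapping, at 1.56 (adjusted p = 1.2e-05), while IRI+Hemin had 6 higher and 3 lower. In the RNA exosome, 1 of 15 genes rose and 1 fell in IRI vs Control. Against IRI, 4 were higher in IPC+IRI, and 5 higher with 1 lower in IRI+Hemin.

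**Figure D4:**
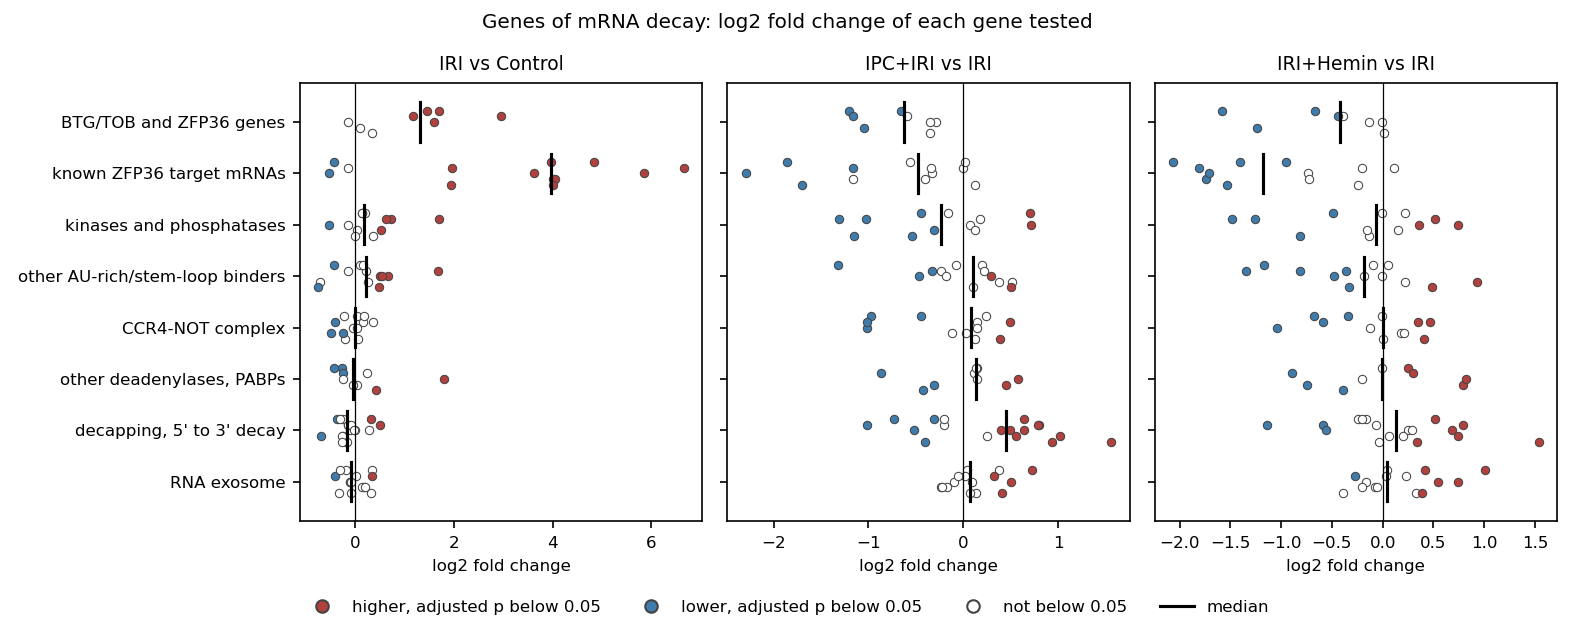
Log2 fold change (x axis) of each tested gene in the 8 lists (y axis) for the injury (IRI vs Control) and for each pretreated injured group against IRI, with a vertical bar at the list's median. In IRI vs Control the CCR4-NOT subunits lie between -0.48 and 0.36, and the ZFP36 targets above background in both groups between -0.52 and 4.83; the points and median of that list also include 5 targets above background in 1 group only, whose size is not exact.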

How the data were processed

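Whole kidney RNA was labelled with Cy3 and hybridised to 20 one-colour Agilent arrays (RNA integrity was screened per the methods of the study). As deposited, the intensity of each spot had been background-subtracted by the authors' scanner software, Agilent Feature Extraction 9.5.3.1, and not scaled between arrays. The deposited log2 matrix holds these same signals (100% of 33598 single-spot probes matched to 0.001), and 18.1% of its cells are blank. Probe positions (mm9) and gene names are those of the file headers and rows.

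From 43379 non-control spots, those marked uneven or as outliers were removed. After averaging the copies of a probe, signals were scaled to the 75th percentile of their array. Probes under 1 gene name were then averaged on the linear scale, so that the brighter probe weighs most, before the log2. Tests needed no more than 1 missing value over the 8 arrays of a comparison, and a signal well above background on at least 3 of 4 arrays in 1 of its groups. limma 3.58.1 in R 4.3.3 (the data.table package, version 1.17.8) was fitted on all 20 arrays with 5 group means, Benjamini-Hochberg adjustment ran over all genes tested, and calls were made at an adjusted p below 0.05. SAM, the test in the methods of the study, was an alternative, as were other scalings, backgrounds and probe rules. The fits were also run on simulated independent values without a slide or scan day effect, and the outcome is not given here. Figures were drawn with Python 3.11.15 and matplotlib 3.10.9.

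The members and gene lists were chosen with earlier results of these data known. Every member is named. In each list and comparison, at most the 2 strongest called rises and the 2 strongest called falls are named; Cnot7, Cnot8, Dusp1 and Myc in further comparisons, the ZFP36 targets above background in both groups and the marker genes were added after their values were seen. Where a gene was below background on all arrays of a group, its fold is a bound: the dim value on each array was the higher of its own and the lowest signal well above background there. Replicate numbers did not pair the samples.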

Additional observations from a re-analysis of the deposited data

Results flagged for a closer look

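Of the 40 sets of 4 arrays (8 genes in 5 groups), 3 held an array farther from the others than Dixon's 95% critical value allows, where chance alone gives about 1 in 20. Zfp36l1 in Control replicate 4 had a log2 expression of 3.28, above the other 3 Control arrays. Zfp36l2 in IPC+IRI replicate 3 was -3.91, above the others of its group. Tob2 in IRI replicate 4 was 0.88, below the other IRI arrays.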

How the results depend on the processing

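Over the 8 genes and all alternatives run, in 1479 values of single members the call did not change, 54 lost a call, 28 gained one and 4 called values changed sign; values that were not called could change sign without being counted. The 4 were Btg1 in IPC+IRI vs IRI (0.017) and in IRI+Hemin vs IRI (0.057) in the unscaled log2 matrix, and Zfp36l1 in Hemin vs Control in that matrix (0.053) and with no normalization between arrays (0.063). Without normalization, the median of all genes stood at 0.62 in Hemin vs Control, 0.41 in IPC+IRI vs IRI, 0.45 in IRI+Hemin vs IRI, 0.35 in IPC+IRI vs Control and 0.38 in IRI+Hemin vs Control, and 8824 genes were called higher and 490 lower in Hemin vs Control. The numbers of members called fell in the same settings. In Hemin vs Control, 4 became 1 in the unscaled matrix and 1 without normalization, and with at least 2-fold 2 became 0 and 0, and 1 when only the arrays compared were fitted. In IPC+IRI vs IRI, 4 became 1 and 1, and with at least 2-fold 3 became 0 and 0, and 0 after normexp. In IRI+Hemin vs IRI, 4 became 2 and 2, and 2 in the scaled matrix, and with at least 2-fold 2 became 1 and 1. In IPC+IRI vs Hemin, 6 became 3 in the unscaled matrix. In the interaction, 0 became 2 with the mean of log2 values over probes (Btg1 -0.71, adjusted p = 0.041; Tob2 1.26, adjusted p = 0.021). In both matrices Btg1 was no longer called in IRI vs Control (0.92, adjusted p = 0.063 scaled; 1.22, adjusted p = 0.054 unscaled). The cause was not tested. Over all genes, calls in the same direction fell too. In Hemin vs Control, genes called lower went from 3271 of 18579 to 422 of 16465 (unscaled matrix) and 490 of 18579 (no normalization). In IPC+IRI vs IRI these were 3152 of 17668, 466 of 15591 and 603 of 17668. In IRI+Hemin vs IRI they were 3233 of 17835, 477 of 15615 and 620 of 17835, and 1514 of 15615 in the scaled matrix. In IPC+IRI vs Hemin, genes called higher went from 2440 of 18544 to 752 of 16306.

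With single arrays left out, 2 to 5 members were called in Hemin vs Control, and 1 to 2 with at least 2-fold. There were 0 to 1 in the interaction and 1 to 3 with at least 2-fold in IPC+IRI vs IRI, where 1 remained without IRI replicate 2. Of 18077 to 18469 genes, 2613 to 3418 were called lower in these fits of Hemin vs Control. In IPC+IRI vs IRI, 2629 to 3075 of 17124 to 17601 genes were called lower. The interaction had 767 to 1088 genes higher and 227 to 571 lower, of 18812 to 19050. A fit with the replicate number as a block called 5 members in IRI vs Control, 4 in IPC+IRI vs Control, 5 in IRI+Hemin vs Control, 4 in Hemin vs Control, 4 in IPC+IRI vs IRI, 4 in IRI+Hemin vs IRI, 6 in IRI+Hemin vs Hemin, 6 in IPC+IRI vs Hemin and 0 in the interaction. Over all genes, the block fit called 2908 higher and 5824 lower in IRI vs Control. For IPC+IRI, IRI+Hemin and Hemin vs Control these were 4116 and 5850, 4348 and 5967, and 3191 and 3114. Against IRI they were 4453 and 2994 in IPC+IRI and 4479 and 3057 in IRI+Hemin. Against Hemin, IRI+Hemin had 2926 and 4904, and IPC+IRI 2324 and 3952. The interaction had 996 and 283. Deviations of equally numbered arrays correlated at -0.38 to 0.21, and over 0.1 in 7 of 40 pairs. A slide block could not be fitted. The number of arrays, 4 a group, limits the precision.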
